A study of Mus musculus with 2 samples.

Results

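The tubulin genes described here were 10 genes of the alpha- and beta-tubulin families: *Tubb3*, *Tubb2a*, *Tubb2b*, *Tubb4a*, *Tubb4b*, *Tubb5* and *Tubb6* for beta-tubulin, and *Tuba1a*, *Tuba1b* and *Tuba4a* for alpha-tubulin. They were taken by symbol from the 32286 genes of the deposited count matrix, and all 10 had UMIs (unique molecular identifiers, each counting a captured RNA molecule) in both libraries. The genes had been picked with earlier results on these libraries in view, for levels spread over all cell types, so what follows is a description with no test.

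Single-nucleus RNA sequencing was carried out on vagus nerve ganglia of C57BL/6J mice. All mice carried Rosa26-floxed-STOP-Cas9-eGFP, were fed a standard chow diet, were 8 to 9 weeks old when purchased, and had received AAVrg-Cre, a retrograde virus carrying Cre, in the liver 4 weeks before collection, so nothing in these libraries stood for uninjected mice. The female library pooled 14 ganglia of 7 female mice and the male library pooled 16 ganglia of 8 male mice. With 1 library of each sex, a difference between sexes cannot be told apart from one between libraries. All intervals given are 95% intervals that cover counting error only.

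The female library held 3791 nuclei with 17435300 UMIs and a median of 2381 UMIs per nucleus. The male library held 4923 nuclei with 27529730 UMIs and a median of 2658. The X-linked *Xist* had 13424 UMIs in the female against 7 in the male library, and the Y-linked *Uty* had 1 and 4677, so both libraries matched their labels. Of the 8714 barcodes, 8 occurred in both libraries. The nuclei were clustered without the tubulin genes into 20 clusters, and 18 clusters were named from marker genes. Some nuclei were like cell types that lie outside the ganglia, namely cerebellar granule cells (380 female and 22 male nuclei) and pituitary cells (215 and 104), and 2 clusters (185 and 479 nuclei) had no name. These class names were rebuilt here. They hold 673 female and 1622 male neuron-like nuclei, far fewer neurons than the study's own names. A difference from the study may therefore come from the names.

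Alpha- and beta-tubulin pair into the dimers from which microtubules are built, the tracks for transport along axons. Mature neurons hold large amounts of tubulin mRNA in their cytoplasm, *Tubb3* is widely used as a neuronal marker, and the other isotypes are shared with glia, fibroblasts and immune cells to different degrees. Tubulin mRNA is also under autoregulation: when free dimers are in excess, the factor TTC5 recognises the first residues of the new chain and the mRNA is degraded.

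All 10 genes were short and had 4 exons in the GENCODE M21 annotation of mm10 (GRCm38), the build named in the submitters' notes. *Tubb3* lay on the plus strand of chromosome 8 from 123411424 to 123422015, *Tubb2a* and *Tubb2b* lay close together on the minus strand of chromosome 13 (34074274 to 34078007 and 34126748 to 34130466), and *Tubb4a* (57080066 to 57087782) and *Tubb5* (35833921 to 35838306) lay on the minus strand of chromosome 17. *Tubb4b* was on chromosome 2, from 25222160 to 25224702. *Tuba1a* (98949837 to 98953703) and *Tuba1b* (98931425 to 98934565) were neighbours on the minus strand of chromosome 15, and *Tuba4a* was on chromosome 1 from 75214228 to 75219865. The median gene length was 4126.5 bases, against 97898 bases for 20 structural microtubule-associated proteins (MAPs) and 48996 bases for 15 motor proteins. *Tubb4b*, *Tuba1b* and *Tuba4a* overlapped an annotated gene on the opposite strand (*Fam166a*, *Gm41396* and *Stk16*), and *Tubb3* and the *Tuba1* genes overlapped a further annotated gene on their own strand.

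The family holds near-identical pairs, which may limit what a count of 1 member means. The coding ends of *Tubb2a* and *Tubb2b* show how alike the coding bases of such a pair are. The final 60 coding bases before the stop codon, in exon 4 of 4, are printed 5′ to 3′ on the gene's strand from the GENCODE M21 transcripts, with the in-frame GAA and GAG codons for glutamate in capitals. This acidic tail is the stretch in which the isotypes differ most and on which tubulin is modified. *Tubb3* is shown as the neuronal isotype, and *Tubb2a* and *Tubb2b* as a close pair.
Tubb3 (chr8:123421620-123421679, plus): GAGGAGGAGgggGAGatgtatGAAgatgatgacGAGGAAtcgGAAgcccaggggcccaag
Tubb2a (chr13:34074471-34074530, minus): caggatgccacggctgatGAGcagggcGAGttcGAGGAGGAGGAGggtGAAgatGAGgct
Tubb2b (chr13:34127474-34127533, minus): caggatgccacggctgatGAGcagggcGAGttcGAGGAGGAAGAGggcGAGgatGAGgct
*Tubb2a* and *Tubb2b* differed at 3 of these 60 bases and were 96.5% identical over the coding sequence. *Tuba1a* and *Tuba1b* were 98.3% identical over theirs, while *Tubb3* was at most 86.0% identical to another member, *Tubb6*. Since the reads of a 3′ kit come mostly from transcript ends, the last 400 bases of each transcript were compared with all other annotated transcripts. Of the 341 windows of 60 bases there, 42.2% were shared with another gene for *Tuba1a*, 51.9% for *Tuba1b*, 29.9% for *Tubb2a* and 24.3% for *Tubb4b*, and none for the other 6 members. The partners were *Tuba1c*, *Tubb2b*, each other, and loci named as pseudogenes or predicted genes, so the split of UMIs among these members is uncertain. Some of these partners are not among the genes summed here, and how far the sum is affected was not tested.

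Summed over the 10 genes, tubulin made up 25.5 of every 10000 UMIs in the female library (44440 UMIs) and 49.1 in the male library (135200 UMIs). The sum was thus 1.93-fold higher in the male library, a log2 ratio of 0.95 (0.93 to 0.96). Every member but *Tubb6* was higher there by more than its counting interval. Among all 19305 genes with at least 20 UMIs, 9.18% were at least 1.5-fold higher in the male library, and 8 of the 10 tubulin genes were. The median log2 ratio was 0.91 over the members and -0.05 over all these genes.

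Among the beta-tubulins, *Tubb3* had 9457 UMIs in the female against 32622 in the male library, or 5.42 and 11.8 per 10000 UMIs, a log2 ratio of 1.13 (1.09 to 1.16). *Tubb5*, a broadly expressed isotype, had 6854 and 20305 UMIs (3.93 and 7.38 per 10000), a log2 ratio of 0.91. *Tubb2a* and *Tubb2b*, isotypes abundant in neurons, had 3310 and 2202 UMIs in the female library, against 10431 and 7458 in the male library, with log2 ratios of 0.997 and 1.10. *Tubb3*, *Tubb5* and *Tubb2a* were the 3 beta-tubulins with the most UMIs in both libraries. *Tubb4b*, a broadly expressed isotype also found in cilia, had 2358 and 6437 UMIs, and its log2 ratio was 0.79. *Tubb4a*, the isotype of myelinating glia and neurons in the brain, had 854 and 1971 UMIs, and its log2 ratio of 0.55 (0.43 to 0.67) was below the fold of 1.5. *Tubb6* (chromosome 18, 67390717 to 67402749), an isotype of non-neuronal cells, had the fewest UMIs, 76 and 124, and its ratio of 0.05 had an interval of -0.38 to 0.48 that included no difference.

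Among the alpha-tubulins, *Tuba1a*, the main alpha isotype of postmitotic neurons, had the most UMIs of all members, with 13729 in the female against 41105 in the male library (7.87 and 14.9 per 10000), a log2 ratio of 0.92. *Tuba1b*, the alpha isotype of many cell types, had 4912 and 12704 UMIs, a log2 ratio of 0.71. *Tuba4a*, which needs no removal of a terminal tyrosine because its gene does not encode it, had 688 and 2043 UMIs, a log2 ratio of 0.91. The 3 alpha genes were thus all higher in the male library, within the range of the beta genes.

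By cell type, the share of UMIs that was tubulin was not highest in the neurons. In the female library the 673 neuron-like nuclei had 27.7 tubulin UMIs per 10000 (27.3 to 28.1), below satellite glia-like nuclei with 32.2 and Schwann cell-like nuclei with 30.7, and close to fibroblast-like nuclei with 27.1 and macrophage-like nuclei with 25.4 (23.5 to 27.4). Endothelial cell-like nuclei followed with 23.7, cerebellar granule cell-like with 20.6, unnamed nuclei with 19.4, adipocyte-like with 18.0, barrier fibroblast-like with 17.0 and pituitary cell-like with 14.8. Neighbours in this order had overlapping intervals, except that Schwann cell-like stood above neuron-like, endothelial cell-like above cerebellar granule cell-like and barrier fibroblast-like above pituitary cell-like nuclei.

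In the male library the order of the classes was different, and the neurons stood near its bottom. Macrophage-like nuclei had 64.5 tubulin UMIs per 10000 (61.6 to 67.5), fibroblast-like 64.1, Schwann cell-like 61.7 and satellite glia-like 61.2, followed by cerebellar granule cell-like with 54.1 (22 nuclei, 47.7 to 61.2), endothelial cell-like with 54.0, unnamed with 51.7 and barrier fibroblast-like with 47.6. Adipocyte-like nuclei had 46.3, the 1622 neuron-like nuclei 45.2 (44.9 to 45.5) and pituitary cell-like nuclei 40.5. Here the neighbours overlapped except that unnamed nuclei stood above barrier fibroblast-like, and neuron-like above pituitary cell-like nuclei.

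**Figure D1:**
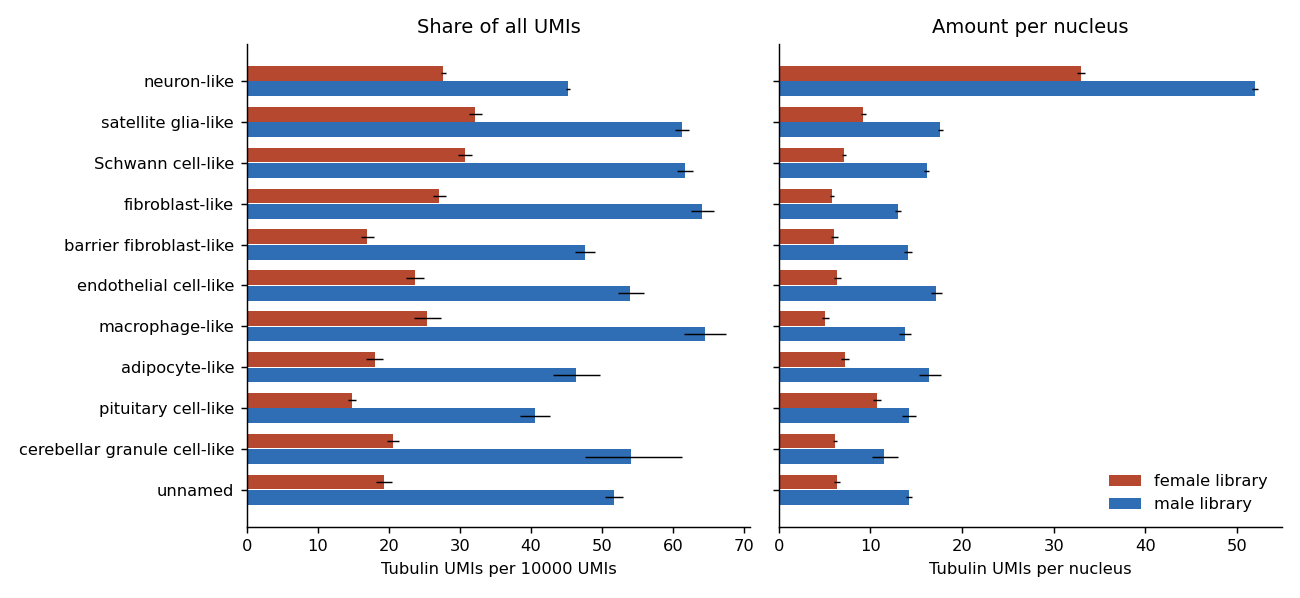
Summed UMIs of the 10 tubulin genes by cell class in the female (red) and male (blue) library, as UMIs per 10000 UMIs of the class (left) and as UMIs per nucleus (right), with 95% counting intervals. The male library was higher in all 11 classes on both scales, and neuron-like nuclei led per nucleus (33.0 and 52.0) but not per 10000 UMIs (27.7 and 45.2).

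Counted per nucleus instead, neurons led in both libraries. Neuron-like nuclei had 33.0 tubulin UMIs each in the female against 52.0 in the male library, against 5.10 and 13.7 in macrophage-like nuclei, so the fold over macrophages was 6.47 (6.00 to 6.99) and 3.78 (3.62 to 3.96). The 7 ganglion classes other than neurons lay between 5.10 and 9.22 per nucleus in the female library, and the male range was 13.04 to 17.6. Among these 7 the highest was 1.81 and 1.35 times the lowest. The neuron-like nuclei were also far deeper, with a median of 5732 and 7577.5 UMIs against 1723 and 1873.5 in macrophage-like nuclei.

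The same held for the share of nuclei with at least 1 *Tubb3* UMI. It was 88.6% of neuron-like and 63.2% of macrophage-like nuclei in the female library, and 98.6% and 91.9% in the male library. After thinning each nucleus to 1000 UMIs, which left out at most 1 nucleus of each of these groups, it was 45.8% (42.0 to 49.7) of neuron-like and 44.4% (35.9 to 53.2) of macrophage-like nuclei in the female library. The male values were 65.8% (63.4 to 68.1) of neuron-like and 72.1% (63.7 to 79.4) of macrophage-like nuclei. After thinning, the *Tubb3* intervals of neuron-like and macrophage-like nuclei overlapped in each library. Thinning evens out the UMIs drawn from each nucleus, but does not match nuclei by their original depth, which is done further below.

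*Tuba1a* was found in 94.9% of neuron-like and 79.4% of macrophage-like nuclei of the female library, and in 99.4% and 99.3% of those of the male library. Of the macrophage-like nuclei, 2 of 136 had no tubulin UMI at all in the female library, against 0 of 136 in the male library, which allows a share of up to 2.21% when a count of 0 is taken to allow up to 3 nuclei. The macrophage-like nuclei had between 0 and 15 tubulin UMIs each in the female library, with a variance 1.39 times the mean, and between 3 and 51 in the male library, with a variance 2.62 times the mean. Neuron-like nuclei were much more uneven, with up to 685 and 710 tubulin UMIs in a nucleus and a variance 92.9 and 87.0 times the mean.

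Set against macrophage-like nuclei per 10000 UMIs, no tubulin gene was 2-fold higher in neuron-like nuclei, in either library. Of all genes tested, 20.1% reached this fold in the female against 15.4% in the male library. The summed log2 ratio was 0.13 (0.016 to 0.24) in the female against -0.51 (-0.58 to -0.45) in the male library. In the other direction, 1 member was at least 1.5-fold higher in macrophage-like than in neuron-like nuclei of the female library, where 38.2% of all genes were, and 5 members were in the male library, where 36.5% of all genes were.

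Gene by gene, *Tubb2b* had the highest ratio in the female library, with 1.51 UMIs per 10000 in neuron-like and 0.953 in macrophage-like nuclei (26 UMIs), a log2 ratio of 0.67 (0.11 to 1.29). In the male library the same gene had 2.57 in neuron-like and 3.90 in macrophage-like nuclei, a log2 ratio of -0.60 (-0.87 to -0.32). *Tubb3* had 6.24 and 5.31 per 10000 in the female library and 11.3 and 13.8 in the male library, and *Tuba1a* had 8.49 and 7.95 in the female against 13.5 and 21.2 in the male library. *Tubb6* was the member with the lowest ratio in both libraries, with 0.0350 per 10000 in neuron-like and 0.110 in macrophage-like nuclei of the female library (28 and 3 UMIs) and 0.0456 and 0.242 in the male library (85 and 7 UMIs). Its log2 ratios of -1.65 (-3.35 to 0.71) and -2.41 (-3.51 to -1.05) rested on those few UMIs, and in male cerebellar granule cell-like nuclei its 0 UMIs allowed a level of up to 0.642 per 10000.

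**Figure D2:**
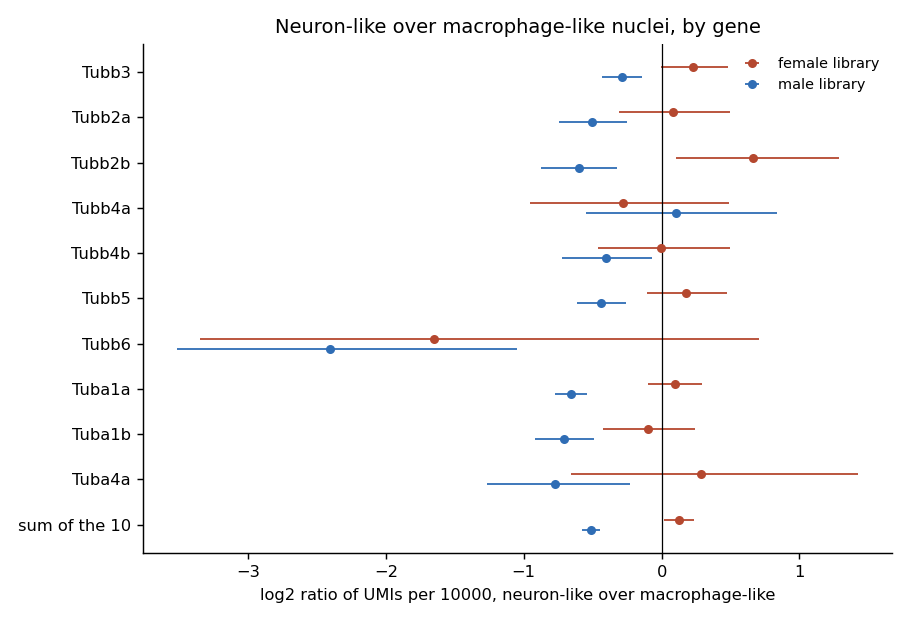
Log2 ratio of UMIs per 10000 in neuron-like over macrophage-like nuclei for each tubulin gene and their sum, in the female (red) and male (blue) library, with exact 95% counting intervals. The line at 0 marks equal levels. The female values lie around it (sum 0.13), most male values lie below it (sum -0.51), and *Tubb6* lies lowest in both libraries.

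The make-up of the tubulin pool was close to the same in all classes. As a share of the 10 genes' summed UMIs, *Tuba1a* ranged from 28.5% to 33.3% over the 11 classes of the female library and from 29.5% to 32.9% in the male library. *Tubb5* ranged from 14.5% to 16.4% and from 13.04% to 15.8%, and *Tubb2a* from 6.45% to 9.46% and from 6.32% to 8.68%. *Tubb3* ranged from 17.9% in Schwann cell-like to 22.5% (21.96 to 23.1) in neuron-like nuclei of the female library. In the male library it ranged from 20.5% in pituitary cell-like to 28.1% (22.6 to 34.03) in the 22 cerebellar granule cell-like nuclei. Female macrophage-like nuclei had 20.9% (18.0 to 24.1), which overlapped the neuron-like share. Male neuron-like nuclei had 24.997% (24.7 to 25.3) and male macrophage-like nuclei 21.4% (19.5 to 23.3), without overlap.

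Some shares did depart from this common make-up by more than their counting intervals. *Tuba1b* took 9.75% (9.36 to 10.2) of tubulin UMIs in female neuron-like nuclei against 12.7% (11.6 to 13.7) in those like Schwann cells and 12.96% (11.8 to 14.2) in those like fibroblasts. Its share in the male library was 8.83% (8.64 to 9.02) in neuron-like nuclei, with 10.6% (10.1 to 11.2) for Schwann cell-like nuclei and 11.1% (10.4 to 11.9) for fibroblast-like nuclei. The share of *Tubb3* was lowest in female Schwann cell-like nuclei with 17.9% (16.7 to 19.1). In both libraries its interval in neuron-like nuclei lay above those of satellite glia-like, Schwann cell-like and fibroblast-like nuclei. For satellite glia-like nuclei it was 20.1% (18.99 to 21.2) in the female and 23.2% (22.5 to 23.9) in the male library. The share of *Tubb4a* was 3.01% (2.35 to 3.78) in female cerebellar granule cell-like nuclei. It was 1.65% (1.27 to 2.10) in Schwann cell-like nuclei of the same library. *Tubb2b* took 2.48% (1.56 to 3.73) in female adipocyte-like nuclei, which rests on 22 UMIs, against 5.46% (5.16 to 5.76) in neuron-like nuclei. *Tubb6* took 0.375% (0.151 to 0.771) in male macrophage-like and 0.101% (0.0805 to 0.125) in neuron-like nuclei.

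**Figure D3:**
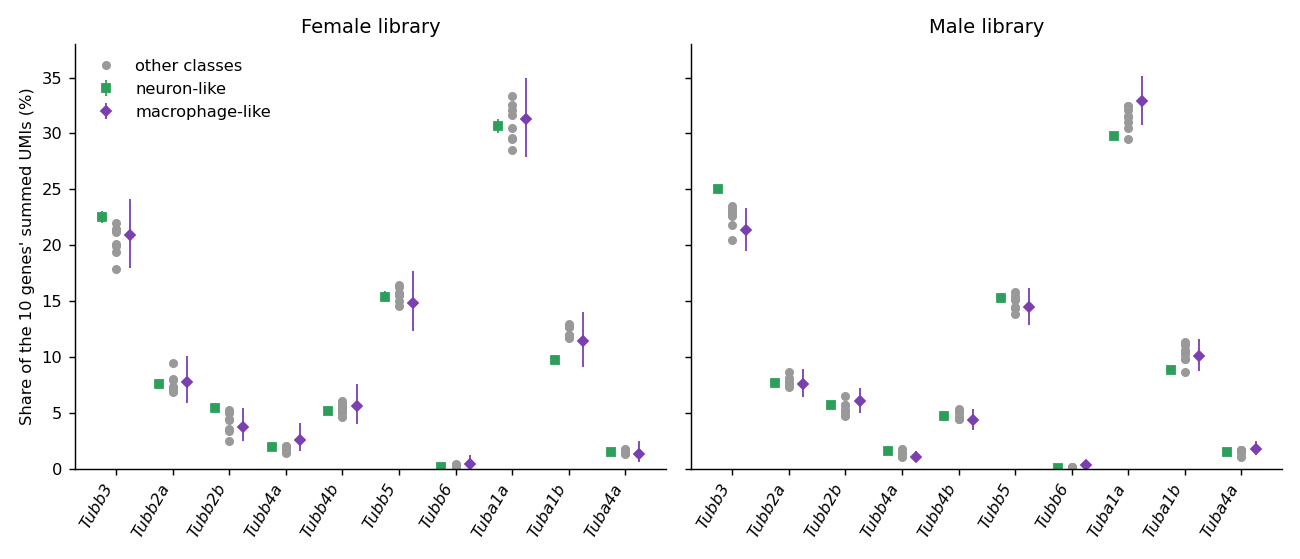
Share of each gene in the summed UMIs of the 10 tubulin genes, in percent, for neuron-like (green squares) and macrophage-like nuclei (purple diamonds) with exact 95% intervals, and for 8 other classes (grey points), in the female (left) and male (right) library. The 22 male cerebellar granule cell-like nuclei and the female ones are not drawn. The classes stay close together for each gene, with *Tuba1a* between 28.5% and 33.3% and *Tuba1b* at 9.75% and 8.83% in neuron-like nuclei.

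Per 10000 UMIs, tubulin differed between the neuron-like clusters, and single clusters of the other classes were spread too. Those ran from 14.8 (cluster 16, pituitary cell-like) to 51.7 (cluster 8, fibroblast-like) in the female library. In the male library they ran from 40.5 (cluster 16) to 78.1 (cluster 15, satellite glia-like). The 5 neuron-like clusters were cluster 3 (205 female and 371 male nuclei), cluster 6 (209 and 318), cluster 10 (116 and 331), cluster 11 (45 and 385) and cluster 17 (98 and 217). Of these 5, cluster 11 had the most tubulin, with 62.9 UMIs per 10000 in the female against 77.5 in the male library, or 93.2 and 90.1 per nucleus. Cluster 17, led by the cold channel gene *Trpm8*, had 39.7 and 49.8 per 10000, cluster 10 had 25.2 and 30.1, and cluster 3 had 18.8 and 31.7. Cluster 6, the shallow neuron-like cluster with a median of 2010 UMIs, had 46.2 and 68.4 per 10000 but 9.55 and 16.0 per nucleus, close to the satellite glia-like nuclei with 9.22 and 17.6.

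*Tubb3* followed the sum, with 21.4 and 22.6 UMIs per nucleus in cluster 11 of the female and male library, 13.02 and 14.9 in cluster 10, 7.51 and 11.8 in cluster 3, 5.98 and 8.73 in cluster 17 and 1.89 and 3.73 in cluster 6. *Tuba1a* reached 27.3 and 26.9 per nucleus in cluster 11 against 16.2 and 16.0 in cluster 10. In clusters 10 and 11 the libraries were close per nucleus, with 53.6 and 54.9 summed tubulin UMIs in cluster 10 and 93.2 and 90.1 in cluster 11. In clusters 3, 6 and 17 the male library had 1.43, 1.68 and 1.33 times the female amount per nucleus. In the macrophage-like nuclei the male library had 2.70 times the female amount per nucleus.

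Within a class, then, the male excess was uneven. Per 10000 UMIs, the fold of the male over the female library was 1.63 in neuron-like and 2.54 in macrophage-like nuclei, log2 ratios of 0.71 (0.69 to 0.73) and 1.35 (1.22 to 1.47). Of the tubulin genes, 6 of 10 were at least 1.5-fold higher in the male library in neuron-like nuclei, where 8.47% of all genes were. In macrophage-like nuclei 9 members had at least 20 UMIs and 8 of them passed the fold, against 20.1% of all genes. *Tubb6*, with 10 UMIs in all, was the member under the minimum. In the 9 other classes *Tubb6* was again under it and the other 9 members passed the fold, with 0.5 UMIs added. In cerebellar granule cell-like nuclei *Tuba4a* had 52 female and 3 male UMIs, and without the added UMIs its fold was 1.39, below 1.5. The share of all genes passing was 12.4% in satellite glia-like, 14.9% in Schwann cell-like, 18.5% in fibroblast-like and 18.4% in barrier fibroblast-like nuclei. It was 20.8% in endothelial cell-like, 21% in adipocyte-like, 22.1% in pituitary cell-like, 33.3% in cerebellar granule cell-like and 21% in unnamed nuclei. In macrophage-like nuclei *Tubb2b* had the highest log2 ratio, 2.03 (1.41 to 2.71, from 26 and 113 UMIs), and *Tubb4a* the lowest, -0.01 (-1.02 to 1.01, from 18 and 19 UMIs).

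**Figure D4:**
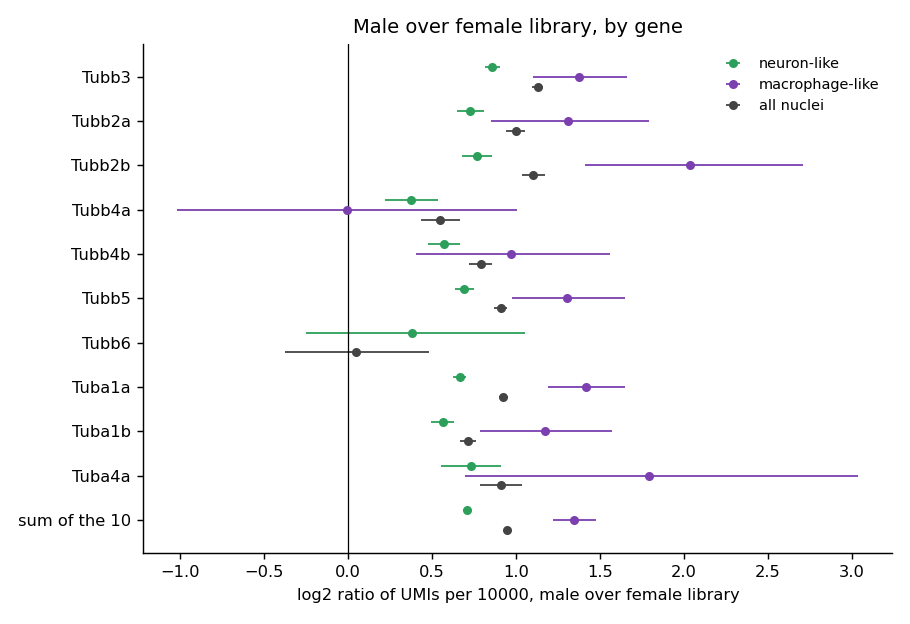
Log2 ratio of UMIs per 10000 in the male over the female library for each tubulin gene and their sum, in neuron-like nuclei (green), macrophage-like nuclei (purple) and all nuclei (grey), with exact 95% counting intervals; genes with under 20 UMIs are not drawn. For the sum, the macrophage-like nuclei (1.35) lie to the right of the neuron-like nuclei (0.71).

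The class ratios also depended on which clusters each library filled. These clusters were made without evening out the libraries, so part of the difference between libraries may lie between clusters. With genes scaled within each library before clustering, one Schwann cell-like cluster held 328 female and 338 male nuclei. The other held 212 and 363. How far the folds within clusters leave out a difference between libraries was not tested. Of the neuron-like nuclei, the tubulin-rich cluster 11 held 45 of 673 in the female library and 385 of 1622 in the male library. Within the neuron-like clusters the fold was 1.69 in cluster 3, 1.48 in cluster 6, 1.20 in cluster 10, 1.23 in cluster 11 and 1.25 in cluster 17, so 4 of the 5 lay below the 1.63 of the class. Schwann cell-like nuclei were mostly cluster 1 in the female library (527 nuclei) and cluster 5 in the male library (518), and the fold was 1.46 (1.39 to 1.53) within cluster 1 and 1.58 (1.37 to 1.81) within cluster 5. Fibroblast-like nuclei were mostly cluster 2 in the female (514) and cluster 8 in the male library (422), with folds of 1.66 and 1.38. Satellite glia-like nuclei came mostly from clusters 4 and 9 in the female library (302 and 241 nuclei), while in the male library cluster 15 was the largest (333). Their folds were 1.52, 1.83 and 1.58 in clusters 4, 9 and 15. Clusters 5, 8 and 15 held only 20, 33 and 16 female nuclei, on which their folds rest. Classes made of a single cluster had larger folds, with 2.80 in barrier fibroblast-like, 2.28 in endothelial cell-like, 2.57 in adipocyte-like and 2.74 in pituitary cell-like nuclei.

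Other mRNAs of neurons were also higher in the male library in macrophage-like nuclei. In macrophage-like nuclei, 14 mRNAs listed as abundant in the cytoplasm of sensory neurons summed to 32.8 UMIs per 10000 in the female against 70.4 in the male library, and all 13 with at least 20 UMIs were at least 1.5-fold higher in the male library, against 20.1% of all genes. The 10 genes used as neuron markers had 5.97 (5.09 to 6.96) per 10000 in female and 12.1 (10.9 to 13.4) in male macrophage-like nuclei, with none at 0, against 59.5 and 52.5 in neuron-like nuclei. The 8 macrophage markers had 54.1 and 36.9 per 10000 in these macrophage-like nuclei and 0.298 and 0.341 in neuron-like nuclei. Neuron-like nuclei were 17.8% of the nuclei and held 45.9% of all UMIs of the female library, and 32.9% and 67.7% of the male library. The part that RNA from neurons or a larger share of neurons had in the tubulin levels was not tested.

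Tubulin levels also changed with the depth of a nucleus. Of the other genes, only the structural MAP genes were grouped by depth. The nuclei of the 7 ganglion classes other than neurons were split by their total UMIs into 5 depth groups of equal size, and from the shallowest to the deepest group the median depth rose 3.69-fold in the female library (1204.5 to 4444 UMIs) and 3.12-fold in the male library (1381.5 to 4304). Tubulin UMIs per nucleus rose less, 2.57-fold and 2.42-fold, so tubulin per 10000 UMIs went from 40.3 to 22.04 in the female library, and the male values went from 78.3 to 47.9. The 20 structural MAP genes kept pace with depth, with 36.6 and 36.9 per 10000 in the shallowest and deepest group of the female library and 41.7 and 42.7 in the male library. In macrophage-like nuclei alone, tubulin per nucleus rose 1.46-fold and 1.69-fold while depth rose 2.84-fold and 2.34-fold. The fall was not particular to these classes. In neuron-like nuclei the deepest group had 0.538 (female) and 0.641 (male) times the tubulin per 10000 UMIs of the shallowest. For the 7 other classes these values were 0.546 and 0.611. The MAP genes of neuron-like nuclei had ratios of 1.08 and 1.17.

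**Figure D5:**
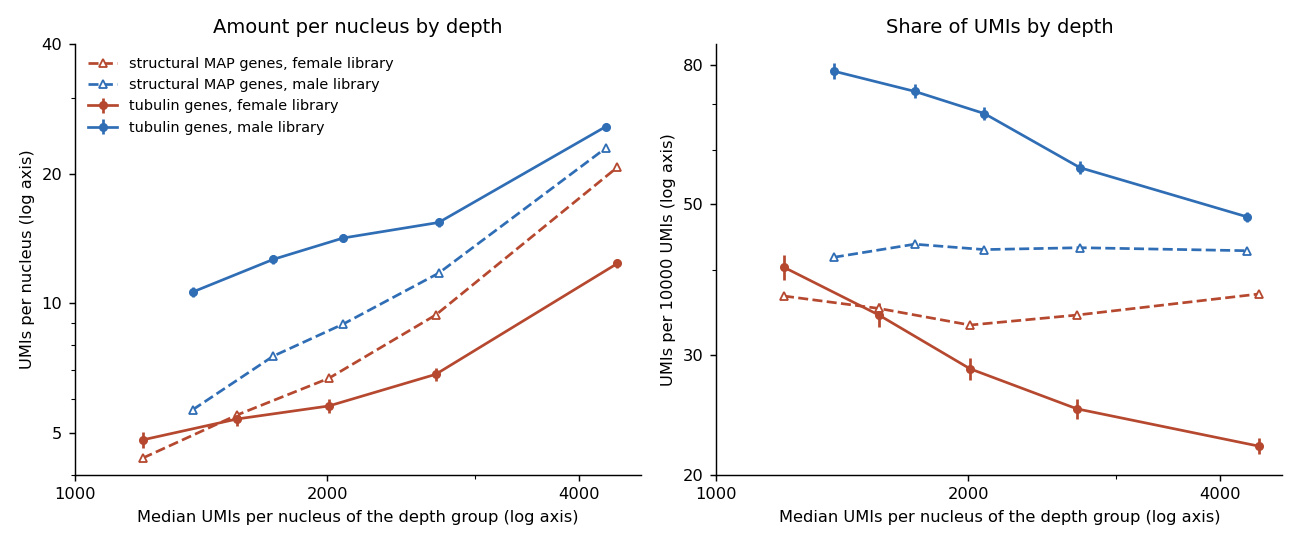
Summed UMIs of the 10 tubulin genes (filled circles, 95% counting intervals) and of the 20 structural MAP genes (open triangles) per nucleus (left) and per 10000 UMIs (right), over 5 depth groups of non-neuronal ganglion nuclei ordered by total UMIs, in the female (red) and male (blue) library. All axes are logarithmic. Per 10000 UMIs the tubulin lines fall with depth (40.3 to 22.04 and 78.3 to 47.9) while the MAP lines stay between 33.2 and 36.9 and between 41.7 and 43.6.

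At matched depth neurons and macrophages could be set side by side. In the female library the shallowest depth group of neuron-like nuclei, with a median of 1506 UMIs, had 47.4 tubulin UMIs per 10000 (44.4 to 50.5). Depth group 2 of macrophage-like nuclei, with 1473 UMIs, had 29.9 (24.7 to 35.7). Female neuron-like depth group 2, with 2809 UMIs, had 36.7 (34.9 to 38.7). The macrophage-like groups on either side of it had 27.2 (23.1 to 31.8, 2190 UMIs) and 16.5 (14.01 to 19.3, 3308 UMIs). In the male library the shallowest neuron-like group, with 2061 UMIs, had 67.8 (65.9 to 69.8). The macrophage-like groups on either side of that depth had 79.9 (72.3 to 88.0, depth group 3, 1876 UMIs) and 61.5 (55.4 to 68.0, depth group 4, 2183 UMIs), so no order of the classes can be read at this depth in the male library. The deepest male macrophage-like group, with 3201 UMIs, had 47.5 (43.3 to 52.0). Male neuron-like depth group 2 was deeper still, with 4053 UMIs, and had 58.5 (57.2 to 59.8). These depths were not matched, and in both classes the deepest group had less tubulin per 10000 UMIs than the shallowest.

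The genes of proteins that bind or move along microtubules were counted in the same way. Of the 20 structural MAP genes, 12 were at least 2-fold higher in neuron-like than in macrophage-like nuclei of the female library, against 7 in the male library, where 20.1% and 15.4% of all genes were. Their median log2 ratios were 1.31 and 0.59, and those of all genes -0.26 and -0.29. *Map7*, which encodes a kinesin cofactor, had log2 ratios of 3.13 and 2.18 and *Mapt*, which encodes tau, 2.92 and 1.79. *Dclk2*, which encodes a doublecortin-like kinase, had the highest ratio in the female library, with 1208 UMIs in neuron-like and 3 in macrophage-like nuclei. *Dcx*, which encodes doublecortin, had 144 and 348 UMIs in neuron-like nuclei and 0 in macrophage-like nuclei of both libraries. The lowest ratios were those of *Camsap2*, which binds microtubule minus ends, in the female library (-0.37) and of *Mapre1*, which encodes the plus-end protein EB1, in the male library (-0.48). Between the libraries in macrophage-like nuclei, 8 of the 17 MAP genes with enough UMIs were at least 1.5-fold higher in the male library (20.1% of all genes) and 2 lower (18.2%), from *Mapre3*, which encodes EB3, with a log2 ratio of 1.62 to *Camsap2* with -1.13.

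Of the 15 motor genes, 10 in the female against 5 in the male library were at least 2-fold higher in neuron-like than in macrophage-like nuclei (20.1% and 15.4% of all genes), with median log2 ratios of 1.55 and 0.59. *Dync1i1*, an intermediate chain of dynein found mainly in neurons, had the highest log2 ratios (3.72 and 2.45), and *Dynll1*, a small dynein light chain, the lowest (-0.20 and -0.55). Between the libraries in macrophage-like nuclei, *Kif3a* and *Kif5a*, kinesin heavy chains, both had a log2 ratio of 1.74 and *Dync1h1*, the dynein heavy chain, 0.38, the lowest of the motors. Of the 15 motors 11 were at least 1.5-fold higher in the male library there, against 20.1% of all genes.

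Among 18 genes of tubulin folding and modification, 10 in the female against 3 in the male library were at least 2-fold higher in neuron-like than in macrophage-like nuclei, against 20.1% and 15.4% of all genes, so the male count was near the share of all genes. *Agbl4*, which trims glutamates from tubulin tails, had the highest log2 ratios (4.69 and 3.48), and *Svbp*, the partner of the enzymes that remove the terminal tyrosine, the lowest (-0.79 and -0.87). In macrophage-like nuclei 6 of the 10 genes with enough UMIs were at least 1.5-fold higher in the male library (20.1% of all genes) and 1 lower (18.2%). The extremes were the folding cofactors *Tbcb* (1.23) and *Tbce* (-0.75). *Ttc5*, the factor of tubulin autoregulation, had 14 and 12 UMIs in these nuclei, and over all nuclei its log2 ratio of male over female was -0.16.

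Stathmins bind free tubulin dimers. None of the 4 was 2-fold higher in neuron-like than in macrophage-like nuclei of the male library, where 15.4% of all genes were, and 2 were in the female library, where 20.1% were. The 3 with enough UMIs in macrophage-like nuclei were all at least 1.5-fold higher in the male library, against 20.1% of all genes, with log2 ratios from 1.03 (*Stmn3*) to 1.48 (*Stmn2*). *Stmn2*, a marker of growing and regenerating axons, had 109 UMIs in female and 323 in male macrophage-like nuclei. Of 10 other tubulin genes, 6 had at least 20 UMIs over all nuclei, with a median log2 ratio of male over female of 0.05. The gamma-tubulin genes *Tubg1* (0.66) and *Tubg2* (0.89) were at least 1.5-fold higher in the male library, where 9.18% of all genes were, and *Tuba8* (-2.15) was lower, as were 13.2% of all genes. For neuron-like over macrophage-like nuclei 5 of them passed the minimum, and 1 was counted as at least 2-fold higher in each library (*Tubg2* in the female and *Tubd1* in the male). In the female library 3 were counted as at least 2-fold lower (*Tuba1c*, *Tubd1* and *Tube1*, 24.5% of all genes) and in the male library 1 (*Tuba1c*, 22.3%). These counts rest on 0 to 9 UMIs of a gene in macrophage-like nuclei, and the genes were named after their values were seen. *Tubg2* had 76 and 308 UMIs in neuron-like nuclei and 0 and 4 in macrophage-like nuclei. *Tuba1c*, another close copy of *Tuba1a*, had 24 and 77 UMIs in neuron-like nuclei and 2 and 4 in macrophage-like nuclei.

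Over the 22 levels of 11 classes in 2 libraries, the genes whose level was most like the summed tubulin level were ranked by Pearson's r of log2 levels, among 190 genes with at least 20 UMIs in each. These levels share library and depth, so r is a description. The levels of macrophage-like and neuron-like nuclei were among the 22. The ratios given below therefore reuse the values of the ranking and add no support to it. The closest was *Sncg*, which encodes gamma-synuclein, a protein of peripheral neurons (r = 0.99), followed by *Tppp3*, *Ubb*, *Fabp5*, *Stmn3*, *Ywhah*, *Hspa8*, *S100a10*, *Fxyd2* and *Ppia* (0.97). In macrophage-like nuclei *Sncg* had 128 UMIs in the female against 366 in the male library, and all 10 of these genes were higher per 10000 UMIs there in the male library, with log2 ratios from 0.82 (*Hspa8*) to 1.77 (*Fabp5*). In the male library all 10 also had a lower level in neuron-like than in macrophage-like nuclei, with log2 ratios from -0.30 (*Ywhah*) to -0.87 (*Ppia*).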

How the data were processed

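Nuclei of both pools were isolated with Triton X-100 and captured with the 10x Genomics Chromium 3′ kit v3.1, and Cell Ranger 7.1.0 aligned the reads to mm10. The deposited matrix holds UMI counts per gene and nucleus, after the authors removed low-quality nuclei and possible doublets. The study states that it aggregated the samples in Cell Ranger with mapped reads evened out between libraries. The counts may therefore not be each library's raw UMIs. Depths and per-nucleus values of the libraries were compared as deposited. No doublet caller was run here. Barcode suffixes were assigned to the libraries from the nuclei the study gives for each sex. No columns of other series were used (0).

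The 10 members and all gene lists were chosen with earlier results of these data known. Nuclei were clustered on 23477 genes in at least 3 nuclei, without tubulin and sex-differing genes (scikit-learn 1.9.0, 10 principal components; python-igraph 0.11.9, 243 neighbours, resolution 3.4). A cluster was named when at least 3 markers of a list reached 1.5-fold, and clusters led by another list stayed unnamed. Levels are summed UMIs per 10000 UMIs with exact Poisson intervals, ratios have exact conditional intervals and shares Clopper-Pearson intervals (SciPy 1.17.1), all at 95% and for counting error only. Fold counts use genes with at least 20 UMIs over the nuclei compared and 0.5 UMIs added. The code for the fold counts was tested on simulated counts. With 1 library of each sex, no test between groups was made. Named were all members, and of each list the genes with the highest and lowest ratios, up to 4; *Map7*, *Mapt*, *Dcx*, *Ttc5*, *Tuba1c* and the examples of UMI counts were chosen after their values were seen. Similarity used log2(UMIs per 10000 + 0.05). Protein sequences were not used here.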

Additional observations from a re-analysis of the deposited data

Results flagged for a closer look

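The following members had neuron-like over macrophage-like ratios of opposite sign in the 2 libraries, and the difference between the libraries was not tested. The log2 ratio of *Tubb3* was 0.23 in the female against -0.29 in the male library, that of *Tubb2a* 0.08 and -0.50, and that of *Tubb2b* 0.67 and -0.60. *Tubb5* had 0.18 and -0.44, *Tuba1a* 0.09 and -0.66 and *Tuba4a* 0.29 and -0.77. *Tubb4a* went the other way, with -0.28 in the female against 0.10 in the male library, and both of its intervals included 0. The female intervals of *Tubb2a*, *Tubb5*, *Tuba1a* and *Tuba4a* also included 0. They rested on 54, 103, 217 and 9 UMIs in macrophage-like nuclei, and the female ratio of *Tubb3* on 145. The summed level had 0.13 and -0.51.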

How the results depend on the processing

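Of 50 alternative values for the main results, 35 were counted as close to the value reported, 14 as moved and 1 as reversed. Ratios counted as moved lay outside their counting interval. Counts of members have no such interval: a change from 8 to 9 was counted as close, and one from 0 to 1 as moved. The log2 ratio of the male over the female library was 1.04 with nuclei thinned to 1000 UMIs, 1.04 as a mean over nuclei and 1.23 per nucleus for all nuclei, and 1.22 thinned for macrophage-like nuclei. The neuron-like over macrophage-like log2 ratio in the female library was 0.46 in nuclei with over 2000 UMIs, 0.27 as a mean over nuclei and 2.69 per nucleus. In the male library it was -0.42 thinned, -0.25 in nuclei with over 2000 UMIs, -0.42 as a mean over nuclei and 1.92, of opposite sign, per nucleus. For female nuclei, the count of members at least 2-fold higher in neuron-like nuclei was 1 when thinned and 1 in nuclei with over 2000 UMIs. Counted per nucleus, it was 9 for female and 9 for male nuclei. The share of all genes reaching this fold was not taken under these alternatives, so these counts cannot be judged against it. The per-nucleus alternative by its construction does not divide by depth, and neuron-like nuclei were the deeper ones. The cause of the other moves was not tested. Under the 3 other clusterings none of these values was counted as moved. The share of all genes past the fold ranged from 7.56% to 15.4% (male over female, all nuclei), from 15.3% to 30.04% (macrophage-like nuclei), from 13.005% to 20.4% (neuron over macrophage, female library) and from 10.6% to 17.4% (male library) with no minimum and with at least 100 UMIs. No paired analysis was possible because each sex had 1 library and no labels pair them.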
